A study of Mus musculus with 12 samples.

Results

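The 6 genes described here, Gfap, Vim, Nes, Synm, Lmna and Plec, encode intermediate filament proteins and a protein that ties such filaments together. They were chosen by name, as the rows of the expression files that carry these symbols, and make up 6 of the 48709 genes listed. All 6 were measured in every library and all 6 passed the filter on low counts. Intermediate filaments are rope-like polymers of the cytoplasm and of the nuclear lamina that give cells mechanical strength, and the proteins that build them differ between cell types. In astrocytes the cytoplasmic filaments are built of glial fibrillary acidic protein (Gfap) and vimentin (Vim), to which nestin (Nes) and synemin (Synm) can be added. Higher levels of Gfap, vimentin and nestin after brain injury are textbook signs of reactive astrocytes. Lamins A and C, the products of Lmna, form filaments under the inner nuclear membrane, and plectin, the product of Plec, links intermediate filaments to each other, to actin and microtubules, and to membrane junctions.

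The libraries were made from RNA of ACSA-2+ astrocytes, cells carrying a surface antigen of astrocytes, taken from dissociated brain hemispheres of 6 mice 24 h after transient middle cerebral artery occlusion (tMCAO), a stroke model in which the artery feeding much of 1 hemisphere is blocked for a limited time. The 4 groups of 3 libraries were the ipsilateral (occluded) and the contralateral hemisphere of 3 mice labelled Astro-KO (called KO here; mice 295, 298 and 300), and the ipsilateral and the contralateral hemisphere of 3 mice labelled wild-type (WT; mice 296, 297 and 474). Both hemispheres of each mouse were sequenced, so that the 12 libraries come from 6 animals. All mice were C57BL/6, aged 90 to 120 days, and carried Gfap-CreERT2+/- and floxed alleles, including those labelled WT. The KO mice were given tamoxifen and the WT mice corn oil, so that any effects of tamoxifen and of the deletion cannot be told apart. Cre is driven by the promoter of Gfap, a gene described here, in every mouse. No library came from a mouse without occlusion.

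The deposited counts summed to between 11187723 and 15780600 per library, and 18292 to 19024 genes had at least 1 count. All 10 astrocyte markers, genes such as Aqp4 and Slc1a3, had counts in every group. Their summed level was 15891 to 26550 CPM (a library's counts scaled to a common total with its TMM factor) in KO ipsilateral, 23582 to 28459 CPM in KO contralateral, 8844 to 10068 CPM in WT ipsilateral and 16959 to 22565 CPM in WT contralateral libraries. Libraries stood apart in several respects. Both libraries of mouse 296 had the male pattern of X- and Y-linked genes and the other 10 the female pattern. Mitochondrial genes took 1.68% and 1.83% of the counts in KO ipsilateral mice 298 and 300, against 0.923% to 1.21% in the other 10 libraries. Oligodendrocyte markers (8 genes) summed to 23254 CPM in the KO ipsilateral library of mouse 300 against 9753 and 10035 CPM in those of mice 295 and 298. Microglia markers (8 genes) summed to 235 CPM in that library of mouse 300 against 1797 and 1273 CPM in those of mice 295 and 298. Neutrophil markers (6 genes) summed to 110 CPM ipsilaterally and 51.7 CPM contralaterally in mouse 296. They were at 12.1 to 25.8 CPM in the other WT libraries and 18.1 to 48.7 CPM in KO libraries. For Gfap, Vim, Nes, Synm and Lmna, fits without mouse 296, 298 or 300, or without a library of these mice, are given where named below. For cell type markers and other genes of the filament system, such fits are given only for the contralateral genotype difference of Pak1. How far the other calls of those genes rest on mouse 296, 298 or 300 is not reported here.

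In the mm10 build, Gfap (ENSMUSG00000020932) lies on chromosome 11 from 102887336 to 102900912 on the minus strand, and Vim (ENSMUSG00000026728) on chromosome 2 from 13573927 to 13582826 on the plus strand. Nes (ENSMUSG00000004891) spans 87971078 to 87980451 of chromosome 3 on the plus strand, and Lmna (ENSMUSG00000028063) spans 88480147 to 88509956 of the same chromosome on the minus strand. Synm (ENSMUSG00000030554) occupies 67730160 to 67759742 of chromosome 7 and Plec (ENSMUSG00000022565) 76170974 to 76232574 of chromosome 15, both on the minus strand. Exons of Synm share 426 bases with exons of Ttc23 on the opposite strand, and exons of Plec share 205 bases with exons of Parp10 on the same strand. Whether the counting used the strand is not given in the sources used here, so reads in these stretches cannot be assigned with certainty.

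The start regions of 4 of these genes are shown so that they can be read beside the side differences described below. Without a block for the mouse, Gfap and Nes were called between the sides in KO mice, Nes also in WT mice, and Vim with KO and WT averaged, while Synm was not called; whether these genes differ from each other was not tested. Each is the RefSeq promoter window (GRCm38.p6, 250 bases before to 50 bases after the start site), written 5′ to 3′ on the gene's strand, with capitals for matches to any of 5 motifs sought on both strands. These were the TATA box written as TATAAA, the GC box written as GGGCGG, the CCAAT box, the AP-1 motif written as TGANTCA and the STAT motif written as TTCNNNGAA, and a base may belong to more than 1 motif. The windows are chr11:102897151-102897450 on the minus strand for Gfap, chr2:13574061-13574360 on the plus strand for Vim, chr3:87970843-87971142 on the plus strand for Nes and chr7:67759693-67759992 on the minus strand for Synm.
Gfap: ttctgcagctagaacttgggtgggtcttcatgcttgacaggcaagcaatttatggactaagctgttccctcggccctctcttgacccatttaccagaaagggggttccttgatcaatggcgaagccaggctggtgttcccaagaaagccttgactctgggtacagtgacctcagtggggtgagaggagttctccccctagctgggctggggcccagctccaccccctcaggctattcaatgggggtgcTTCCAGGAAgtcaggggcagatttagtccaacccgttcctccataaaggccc
Vim: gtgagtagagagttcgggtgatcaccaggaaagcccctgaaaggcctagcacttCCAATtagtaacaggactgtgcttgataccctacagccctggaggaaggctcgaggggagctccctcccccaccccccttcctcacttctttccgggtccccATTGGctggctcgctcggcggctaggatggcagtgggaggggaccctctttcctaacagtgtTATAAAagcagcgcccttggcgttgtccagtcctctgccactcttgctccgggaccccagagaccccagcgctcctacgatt
Nes: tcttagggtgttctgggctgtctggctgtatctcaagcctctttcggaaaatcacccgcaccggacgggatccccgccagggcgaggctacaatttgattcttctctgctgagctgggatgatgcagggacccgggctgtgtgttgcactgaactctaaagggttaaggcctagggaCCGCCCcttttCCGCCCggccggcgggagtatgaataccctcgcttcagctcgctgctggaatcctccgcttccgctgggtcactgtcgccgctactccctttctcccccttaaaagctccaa
Synm: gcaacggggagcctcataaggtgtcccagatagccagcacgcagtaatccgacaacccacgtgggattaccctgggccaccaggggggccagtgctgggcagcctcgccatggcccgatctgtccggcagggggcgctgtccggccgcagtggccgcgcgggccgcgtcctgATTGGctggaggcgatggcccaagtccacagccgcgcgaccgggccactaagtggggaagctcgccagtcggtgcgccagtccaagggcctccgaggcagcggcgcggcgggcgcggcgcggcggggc
The Gfap window held 1 match, TTCCAGGAA, which begins at position -2 from the start site and is of the TTCNNNGAA form found in 8.3% of the 32851 mouse promoter windows in the same table. Vim had TATAAA at position -32, a motif of 13.6% of windows, and CCAAT matches, on opposite strands, at positions -196 and -94. Nes held GGGCGG on the other strand, read as CCGCCC, at positions -73 and -62, and 35.7% of all windows hold that motif. In Synm the CCAAT motif, which 37.4% of windows hold, appeared as ATTGG at position -78. TGANTCA, found in 7.81% of windows, had no match in these 4 windows. The Lmna window chr3:88503303-88503602, which is not shown, held it as TGACTCA at position 40. The other Lmna window, chr3:88493263-88493562, did not hold it. A match describes letters in the window and was not tested as a binding site.

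Per length, Gfap and Vim were far more abundant than the other 4 genes in every group. In TPM, which scales counts by transcript length and to a common total, KO ipsilateral libraries had 2219 ± 530 for Gfap (SD, n = 3, as in all values below) and 1809 ± 476 for Vim, followed by Nes at 100.6 ± 33.3, Plec at 73.6 ± 17.5, Lmna at 72.8 ± 26.8 and Synm at 48.3 ± 6.84. Each neighbour in this order overlapped the next except Vim and Nes, which were apart. Vim came ahead of Gfap in the other 3 groups, with 1291 ± 236 against 730 ± 382 TPM in KO contralateral, 2278 ± 492 against 1496 ± 347 TPM in WT ipsilateral and 1484 ± 358 against 913 ± 180 TPM in WT contralateral libraries, and the ranges of these 2 genes overlapped in each group. Synm, which took the last place in KO ipsilateral libraries, was the third most abundant of the 6 in both WT groups, at 132 ± 79.7 TPM ipsilaterally and 87.1 ± 47.7 TPM contralaterally. In each WT group the lower 4 genes overlapped with their neighbours in the order. Among all genes, Gfap ranked 30 to 43 by TPM in KO ipsilateral, 78 to 295 in KO contralateral, 41 to 72 in WT ipsilateral and 84 to 127 in WT contralateral libraries.

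The order of Vim and Gfap depends on the transcript length used. The deposited TPM of Vim rests on 2350 bases, whereas its merged exons in the GENCODE annotation span 4743 bases; Gfap, Nes, Synm and Lmna match their annotated lengths, and Plec has 18097 against 18113 bases. On the annotated length Vim would have 896 ± 236 TPM in KO ipsilateral, 639 ± 117 TPM in KO contralateral, 1129 ± 244 TPM in WT ipsilateral and 735 ± 177 TPM in WT contralateral libraries. Gfap would then exceed Vim in 2 of 3 KO contralateral libraries and in 3 of 3 libraries of each other group, while with the deposited values it did so in 3 of 3 KO ipsilateral libraries and 0 of the other 9. The tests between groups with edgeR below use counts of 1 gene at a time and do not depend on its length.

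Of the genes, Gfap, Vim, Nes and Lmna were higher on the ipsilateral side in 6 of 6 mice, Plec in 5 of 6 and Synm in 4 of 6 by CPM. By TPM, Plec and Synm were each higher in 3 of 6 mice, and Synm in 0 of the 3 KO mice, while the other 4 genes were still higher in 6 of 6. Of all 15571 genes tested, 19% were higher ipsilaterally in all 6 mice. With KO and WT averaged, edgeR's quasi-likelihood test called 4 of the 6 genes higher on the ipsilateral side, against 17.1% of all genes called higher (33.2% in either direction). These were Nes at log2 1.35 ± 0.17 (SE; edgeR adjusted p = 0.00035), Gfap at 1.23 ± 0.25 (0.00393), Lmna at 0.92 ± 0.24 (0.0135) and Vim at 0.63 ± 0.19 (0.0274). Plec, at 0.40 ± 0.19 with edgeR adjusted p = 0.126, and Synm, at 0.22 ± 0.29 with edgeR adjusted p = 0.598, did not pass. The median of the 6 log2 differences was 0.77, against -0.03 over all genes. In bulk RNA, a change in RNA per cell and a change in how many cells of a type were collected cannot be told apart. The Vim call did not pass without mouse 474 (adjusted p = 0.105), 295 (0.0899) or 300 (0.0573), nor without the WT contralateral library of mouse 474 (0.0559), the KO contralateral library of mouse 295 (0.0576) or 298 (0.0719), or the KO ipsilateral library of mouse 300 (0.0599). In turn, the Lmna call did not pass without mouse 297 (adjusted p = 0.0585) or 295 (0.0507), by the same edgeR test.

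**Figure D1:**
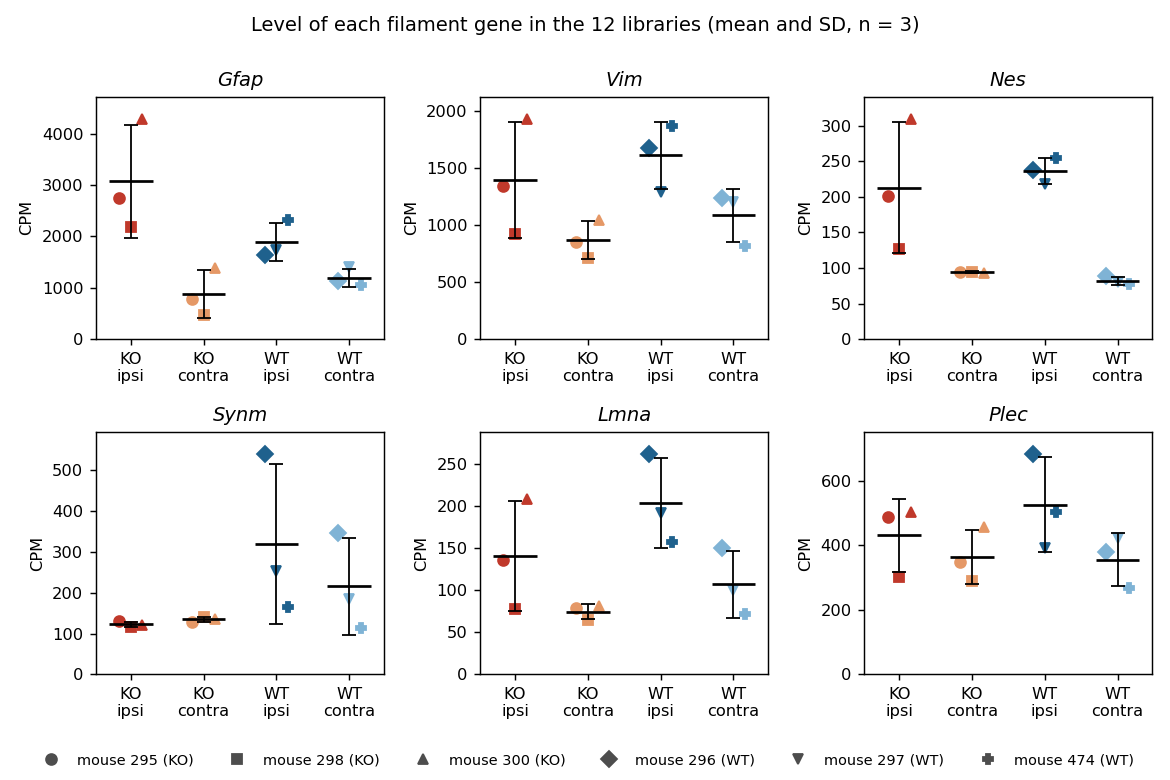
CPM of the 6 genes in each of the 12 libraries (points, shaped by mouse) by group, KO ipsilateral, KO contralateral, WT ipsilateral and WT contralateral from left to right, with horizontal lines for group means and error bars for SD. Gfap was highest in the 3 KO ipsilateral libraries except for the overlap with WT ipsilateral mouse 474, and Synm lay between 117 and 141 CPM in all 6 KO libraries but between 114 and 539 CPM in WT libraries.

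Taken separately, the KO mice had 2 of the 6 genes called higher ipsilaterally, Gfap and Nes, where 5.45% of all genes were called higher and 6.29% called in either direction. The WT mice had 1, Nes, where 9.61% of all genes were called higher and 19.2% in either direction. The median log2 difference of the 6 genes was 0.80 in KO mice, against -0.01 over all genes, and 0.62 in WT mice, against -0.06 over all genes. The KO side difference passed for 0 to 4 of the 6 genes as libraries or mice were left out in turn. With the mouse as a fixed block, which uses the pairing of hemispheres, edgeR called 3 of the 6 genes in KO mice, with Lmna added, and 4 in WT mice, with Gfap, Synm and Lmna added; 16% of all genes were then called in KO mice and 29.8% in WT mice. The ranges of the sides were apart and higher ipsilaterally for 2 of the 6 genes in KO mice (18.6% of all genes) and for 4 in WT mice (17.3%). With the mouse as a random block, limma called 3 of the 6 in KO mice, Gfap, Nes and Lmna, and 2 in WT mice, Nes and Lmna. Of all 15571 genes, that fit called 2996 in KO mice and 5020 in WT mice. DESeq2 called 2 of the 6 in WT mice, Nes and Lmna, and 24.6% of all genes.

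Gfap, the filament protein by which astrocytes are most often recognised, had 2752, 2177 and 4296 CPM on the ipsilateral side of KO mice 295, 298 and 300. The contralateral libraries of the same mice had 787, 471 and 1391 CPM. Every KO ipsilateral library was above every KO contralateral library, and mouse 300 was highest on both sides. The difference was log2 1.80 ± 0.36 (SE; 3.48-fold, 95% interval 1.01 to 2.59 on the log2 scale), and Gfap rose at edgeR adjusted p = 0.0188. In WT mice 296, 297 and 474, Gfap had 1629, 1740 and 2317 CPM ipsilaterally, against 1136, 1397 and 1057 CPM contralaterally. These ranges were also apart, but the difference of 0.66 ± 0.35 (95% interval -0.11 to 1.43) did not pass, with edgeR adjusted p = 0.207. With the mouse as a fixed block it passed at edgeR adjusted p = 0.0337, but with the mouse as a random block, at an estimated correlation, it did not (limma adjusted p = 0.0738). The KO call passed in 13 of 18 fits that each left out 1 library or 1 mouse; the edgeR adjusted p was 0.164 without mouse 295, 0.0757 and 0.0534 without its contralateral or its ipsilateral library alone, 0.0948 without the contralateral library of mouse 298 and 0.0688 without the ipsilateral library of mouse 300. Without mouse 298 the difference was 1.71 (edgeR adjusted p = 0.0271), and without mouse 300 it was 1.95 (0.0371).

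Within each mouse, ipsilateral Gfap was 3.50, 4.62 and 3.09 times the contralateral CPM in KO mice 295, 298 and 300, and 1.43, 1.25 and 2.19 times in WT mice 296, 297 and 474. The 3 KO ratios were all above the 3 WT ratios, and the share of all genes that split the mice this way was not counted. The test of that difference between the side differences gave log2 1.14 ± 0.50 (95% interval 0.05 to 2.23), with an unadjusted p = 0.042 and an adjusted p = 0.948 in edgeR over all genes. With the mouse as a block the adjusted p was 0.324 by edgeR. The direct comparison of the hemispheres between genotypes gave 0.70 ± 0.35 for KO over WT ipsilaterally (edgeR adjusted p = 0.282) and -0.44 ± 0.35 contralaterally (adjusted p = 0.570), with overlapping ranges on both sides.

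**Figure D2:**
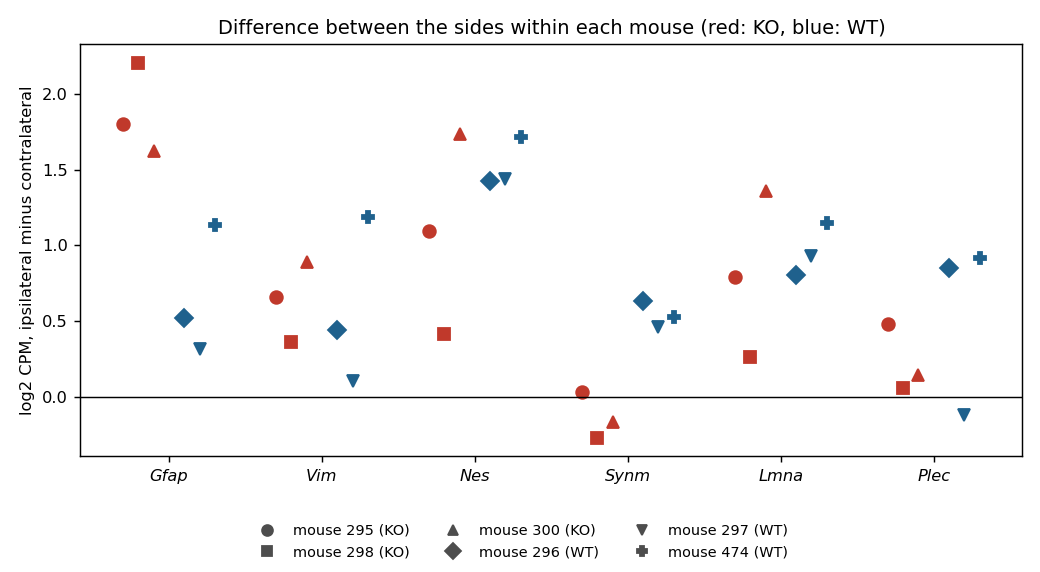
Difference between the sides within each mouse (log2 CPM, ipsilateral minus contralateral) for the 6 genes, red for KO mice 295, 298 and 300 and blue for WT mice 296, 297 and 474. For Gfap the KO mice lie at 1.81, 2.21 and 1.63 and the WT mice at 0.52, 0.32 and 1.13, and for Synm the KO mice lie at 0.03, -0.27 and -0.17 and the WT mice at 0.63, 0.46 and 0.53.

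Vimentin, the filament protein that Gfap co-assembles with in reactive astrocytes, did not pass in either genotype on its own. Vim had 1337, 918 and 1931 CPM in KO ipsilateral libraries, against 848, 713 and 1042 CPM in KO contralateral libraries of mice 295, 298 and 300. The groups overlapped, as the ipsilateral level of mouse 298 was below the contralateral level of mouse 300. On the ipsilateral side of WT mice 296, 297 and 474, Vim had 1677, 1285 and 1864 CPM, against 1235, 1196 and 819 CPM contralaterally, and the ranges were apart. The differences were close in size, 0.69 ± 0.27 in KO mice (edgeR adjusted p = 0.143) and 0.57 ± 0.27 in WT mice (adjusted p = 0.163). Their difference was 0.11 ± 0.38 with a 95% interval from -0.72 to 0.95, and edgeR's adjusted p was 0.994. Without the KO ipsilateral library of mouse 298, the KO difference of Vim was 0.93 and passed at edgeR adjusted p = 0.0336.

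Nestin is a large filament protein of neural progenitors that needs a partner such as vimentin to form filaments. Without a block for the mouse, Nes was the only 1 of the 6 that edgeR called in both genotypes. With the mouse as a fixed block Gfap and Lmna were also called in both, and as a random block Lmna was. Nes had 202, 126 and 310 CPM in KO ipsilateral libraries of mice 295, 298 and 300, and 94.3, 95.1 and 93.1 CPM in their contralateral libraries. The contralateral libraries of the KO mice differed by a coefficient of variation of 1.03% and the ipsilateral ones by 43.4%, and the groups were apart. Nes in WT mice 296, 297 and 474 had 238, 218 and 254 CPM ipsilaterally, against 88.6, 80.6 and 77.4 CPM contralaterally, again apart. Nes rose by 1.18 ± 0.24 in KO mice (2.26-fold, edgeR adjusted p = 0.0199) and by 1.53 ± 0.25 in WT mice (2.88-fold, edgeR adjusted p = 0.00249). The WT call passed in all 18 fits that left out a library or a mouse, with edgeR adjusted p between 0.000635 and 0.0332, and the KO call in 11 of 18. Without mouse 295 the KO call had edgeR adjusted p = 0.164, and without mouse 300 a difference of 0.77 at edgeR adjusted p = 0.182. It also did not pass without the contralateral library of mouse 295 (edgeR adjusted p = 0.0727), 298 (0.107) or 300 (0.0856), or the ipsilateral library of mouse 295 (0.0611) or 300 (0.0503), and without mouse 298 it was 1.46 (0.0159). Between genotypes, Nes was 93.1 to 95.1 CPM in KO contralateral and 77.4 to 88.6 CPM in WT contralateral libraries, ranges that were apart where 11% of all genes were apart and higher, but the difference of 0.20 ± 0.24 had edgeR adjusted p = 0.714.

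Synemin, a filament protein that cannot form filaments alone and joins Gfap and vimentin to membrane complexes, followed another pattern. Synm had 130, 117 and 120 CPM in KO ipsilateral libraries of mice 295, 298 and 300, and 127, 141 and 135 CPM in the contralateral libraries of these mice. All 6 KO libraries thus lay within 117 to 141 CPM. In WT mice 296, 297 and 474 it had 539, 254 and 165 CPM ipsilaterally, against 347, 185 and 114 CPM contralaterally, so the ranges overlapped, while each WT mouse was higher ipsilaterally, by 1.55, 1.37 and 1.44 times. Mouse 296 was highest on both sides and mouse 474 lowest on both. The side difference was -0.14 ± 0.41 in KO mice (edgeR adjusted p = 0.858) and 0.57 ± 0.41 in WT mice (adjusted p = 0.358). With the mouse as a block, which removes the difference between mice, the WT difference was 0.54 and passed as a fixed term at edgeR adjusted p = 0.00706. As a random term, at an estimated correlation, the mouse gave the same 0.54 without a call (limma adjusted p = 0.157). The difference between the side differences was -0.70 ± 0.58 (95% interval -1.97 to 0.57), with adjusted p = 0.954 by edgeR, or 0.324 with the block.

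Between genotypes on the occluded side, Synm was 117 to 130 CPM in KO and 165 to 539 CPM in WT libraries, ranges that were apart; 10.1% of all genes tested were apart in the same direction. The difference was -1.38 ± 0.42 (95% interval -2.29 to -0.47, KO over WT), with edgeR adjusted p = 0.0742, so the gene did not pass. DESeq2 gave an adjusted p of 0.0104 for the same difference. The size depended on mouse 296, without whose ipsilateral library the difference was -0.77 ± 0.34 at edgeR adjusted p = 0.277. Without both libraries of mouse 296 it was -0.77 ± 0.21 (edgeR adjusted p = 0.0608). The difference passed without mouse 474 (-1.69, edgeR adjusted p = 0.0121), without either of its libraries alone (0.0261 for the ipsilateral and 0.0442 for the contralateral), and without the contralateral library of mouse 296 (0.0334). The male pattern and the high neutrophil sums of mouse 296, and their part in these values, were not tested. On the contralateral side Synm differed by -0.68 ± 0.41 with edgeR adjusted p = 0.469. In Ttc23, which shares 426 exonic bases with Synm, the ipsilateral genotype difference was 0.24 ± 0.22 (edgeR adjusted p = 0.581).

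Lmna, the nuclear member of the group, had 136, 77.3 and 208 CPM in KO ipsilateral libraries of mice 295, 298 and 300 and 78.6, 64.4 and 80.8 CPM in their contralateral libraries. The groups overlapped through mouse 298. In WT mice 296, 297 and 474 it had 262, 191 and 158 CPM ipsilaterally, against 150, 100.4 and 71.2 CPM contralaterally, ranges that were apart. The side differences were 0.91 ± 0.34 in KO mice and 0.93 ± 0.34 in WT mice, with edgeR adjusted p of 0.123 and 0.0775. With the mouse as a fixed block both passed, at edgeR adjusted p = 0.0273 in KO and 0.00682 in WT mice, and as a random block too, at limma adjusted p = 0.0424 in KO and 0.0142 in WT mice; DESeq2 gave an adjusted p of 0.0342 in WT mice. The difference between the side differences was -0.01 ± 0.48 (95% interval -1.06 to 1.03; edgeR adjusted p = 0.998). Without the KO ipsilateral library of mouse 298 the KO difference was 1.22 and passed at edgeR adjusted p = 0.0222. The WT difference passed in 4 of 18 fits that left out a library or a mouse: without the WT contralateral library of mouse 296 (1.25, edgeR adjusted p = 0.0299), the KO ipsilateral library of mouse 298 (0.0294) or 300 (0.0368), or mouse 298 (0.0496). It had an edgeR adjusted p of 0.0688 without both libraries of mouse 296.

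Plec, the linker, had 487, 302 and 504 CPM in KO ipsilateral libraries of mice 295, 298 and 300 and 349, 291 and 456 CPM in their contralateral libraries. The groups overlapped. The WT mice 296, 297 and 474 had 683, 391 and 504 CPM ipsilaterally, against 378, 424 and 266 CPM contralaterally, and mouse 297 was the only mouse with less Plec ipsilaterally. The side differences of 0.24 ± 0.27 in KO mice (edgeR adjusted p = 0.596) and 0.56 ± 0.27 in WT mice (adjusted p = 0.164) did not pass. Parp10, which shares exonic bases with Plec, was 0.64 ± 0.18 higher ipsilaterally with KO and WT averaged (edgeR adjusted p = 0.0186). In TPM rather than CPM, Plec was higher ipsilaterally in 1 of 3 KO mice and 2 of 3 WT mice.

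**Figure D3:**
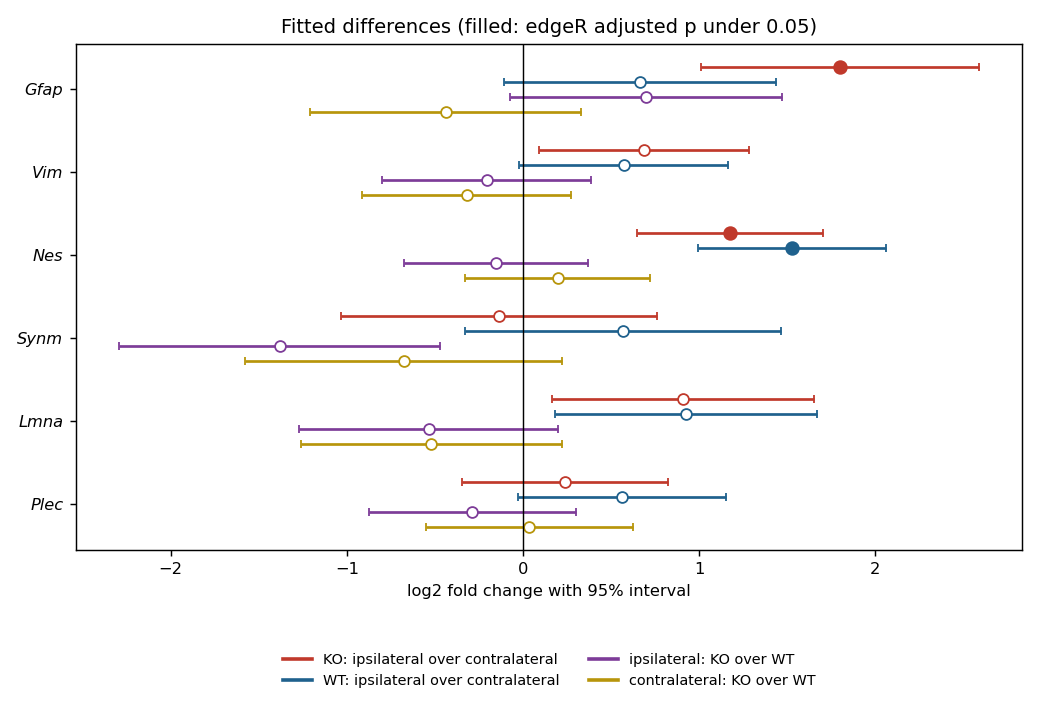
Fitted log2 differences of the 6 genes with 95% intervals for 4 comparisons, with filled points for edgeR adjusted p under 0.05. The filled points are Gfap at 1.80 and Nes at 1.18 in KO mice and Nes at 1.53 in WT mice; the ipsilateral KO over WT value of Synm, -1.38, is open.

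Between genotypes none of the 6 genes passed, on the ipsilateral side (6.31% of all genes called) or on the contralateral side (1.5% called), by edgeR at the adjusted threshold of 0.05. At an unadjusted p under 0.05, 1 of the 6, Synm, passed ipsilaterally, beside 3391 of the 15571 genes tested, and 0 passed contralaterally, beside 2230 of all genes; DESeq2 called 1 of the 6 ipsilaterally, also Synm, with 11.3% of all genes, and 0 contralaterally, with 4.24% of all genes. KO over WT on the ipsilateral side, Vim differed by -0.21 ± 0.27, Nes by -0.15 ± 0.24, Lmna by -0.54 ± 0.34 and Plec by -0.29 ± 0.27. Contralaterally, Vim differed by -0.32 ± 0.27, Lmna by -0.52 ± 0.34 and Plec by 0.04 ± 0.27. The median of the 6 differences was -0.25 ipsilaterally, against 0.02 over all genes, and -0.38 contralaterally, against 0.00 over all genes. For the difference between the side differences edgeR called 0 of the 6 genes and 0% of all genes; at an unadjusted p under 0.05 it had 1 of the 6, Gfap, and 763 of all genes, and DESeq2 called 20 genes (0.128%), with 0 of the 6 among them.

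Ratios of counts within a library do not depend on its scaling. Gfap counts were 2.06, 2.37 and 2.23 times Vim counts on the ipsilateral side of KO mice 295, 298 and 300. In the contralateral libraries of these mice the ratio was 0.927, 0.660 and 1.34. In WT mice 296, 297 and 474 it was 0.971, 1.35 and 1.24 ipsilaterally and 0.920, 1.17 and 1.29 contralaterally. Every KO ipsilateral library was above all other 9 libraries. The ratio itself was not tested, and how often other pairs of genes split the libraries this way was not counted. Synm counts were 4.73%, 5.37% and 2.80% of Gfap counts in the KO ipsilateral libraries, and 7.11% to 33.1% in the other 9. Nes counts were 0.151, 0.138 and 0.161 times Vim counts in KO ipsilateral and 0.111, 0.133 and 0.0894 times in KO contralateral libraries of the same mice. The Nes ratio in WT mice was 0.142, 0.170 and 0.136 ipsilaterally, against 0.0718, 0.0673 and 0.0946 contralaterally. In both genotypes every ipsilateral library was above every contralateral library in this ratio. Neither the Nes nor the Synm ratio was tested. How often other pairs of genes split the libraries in these ways was not counted. In mouse 298, whose side ratio of Gfap was the highest of all mice at 4.62, those of Nes (1.33) and Lmna (1.20) were the lowest of all mice.

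**Figure D4:**
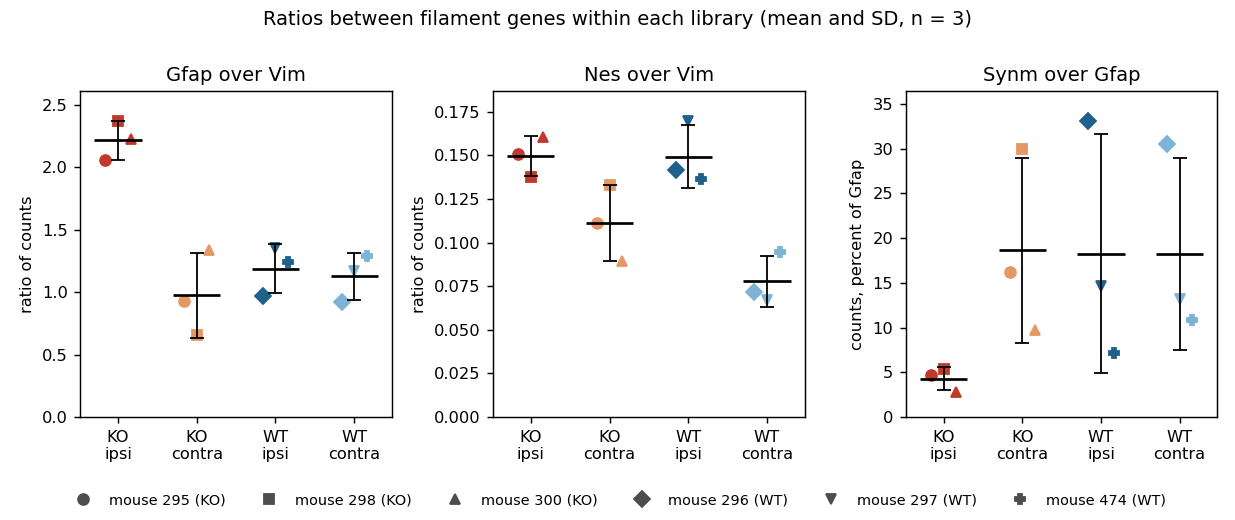
Count ratios within each library by group, with points shaped by mouse, for Gfap over Vim, Nes over Vim and Synm as a percentage of Gfap, with horizontal lines for means and error bars for SD (n = 3). Gfap over Vim is 2.06 to 2.37 in the KO ipsilateral libraries and 0.660 to 1.35 in the other 9.

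Markers of other cells moved with some of these comparisons. On the occluded side of WT mice, 8 of the 10 astrocyte markers and 6 of the 10 mural cell markers fell by edgeR while Nes rose, and the mural sum was 789 to 1089 CPM ipsilaterally, against 1329 to 1541 CPM contralaterally. Of all 15571 genes tested, 1485 fell in that comparison. In KO mice 0 of either list passed, where 979 of all genes were called in either direction. The mural sum there was 1256 to 1697 CPM ipsilaterally, against 1412 to 1717 CPM contralaterally. The oligodendrocyte sum was 9753 to 23254 CPM in KO ipsilateral and 5518 to 7729 CPM in KO contralateral libraries, where Gfap and Nes rose, and 13703 to 21690 CPM in WT ipsilateral and 17785 to 19127 CPM in WT contralateral libraries. Ependymal cells, which also make vimentin, had marker sums of 577 to 808 CPM in KO ipsilateral, 1121 to 1142 CPM in KO contralateral, 348 to 816 CPM in WT ipsilateral and 619 to 1139 CPM in WT contralateral libraries. Within every mouse of both genotypes the ependymal sum was lower ipsilaterally than contralaterally. Vim did not pass in either genotype on its own. Microglia, which also make vimentin, had sums of 235 to 1797 CPM in KO ipsilateral, 678 to 1087 CPM in KO contralateral, 681 to 1062 CPM in WT ipsilateral and 393 to 446 CPM in WT contralateral libraries. For monocytes and macrophages the sums were 142 to 250 CPM in KO ipsilateral, 101 to 269 CPM in KO contralateral, 78.5 to 160 CPM in WT ipsilateral and 61.3 to 67.0 CPM in WT contralateral libraries. Both sums were higher ipsilaterally within every WT mouse. By edgeR 0 of the 8 microglia and 1 of the 7 monocyte and macrophage markers rose in WT mice, beside 1497 of all genes. In KO mice, where Nes also rose, the microglia sum was lower ipsilaterally in mouse 300 (235 against 678 CPM). The monocyte and macrophage sum was lower ipsilaterally in mouse 295 (250 against 269 CPM). In the remaining KO mice each sum was higher ipsilaterally. Endothelial cells, which also make vimentin and can make nestin, had sums of 1409 to 2167 CPM in KO ipsilateral, 1314 to 2013 CPM in KO contralateral, 1331 to 1899 CPM in WT ipsilateral and 1389 to 1997 CPM in WT contralateral libraries, which overlapped. Beside the ipsilateral difference of Synm between genotypes, 8 of the 10 astrocyte markers and 5 of the 10 mural markers were higher in KO, and 2 of the 8 oligodendrocyte and 2 of the 5 choroid plexus markers were lower. Of all 15571 genes, 675 were called higher and 308 lower in KO ipsilaterally, and 0 were called without mouse 297. In this comparison the median log2 difference of the 10 astrocyte markers was 1.02, beside 0.70 for Gfap. Between the sides the astrocyte marker median was -0.29 in KO mice and -0.91 in WT mice, where Gfap differed by 1.80 and 0.66. For the difference between the side differences, the astrocyte markers had a median of 0.58 and Gfap had 1.14. The choroid plexus sum was 464 to 1164 CPM in KO ipsilateral, 683 to 1971 CPM in KO contralateral, 2421 to 5948 CPM in WT ipsilateral and 4051 to 7690 CPM in WT contralateral libraries. No marker of any list was at 0 in all libraries of a group. The part of these other cells in the values of the 6 genes was not tested.

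The genes whose levels ran closest to each of the 6 across the 12 libraries were found by the root mean square (RMS) difference of log2 CPM after each gene's own mean was removed, among 12002 genes, as a description over libraries that share mice and groups. Closest to Gfap were Aspg (RMS 0.28), Mrps6 (0.35) and Tnfrsf1a (0.38), while Vim was at 0.54 and Synm at 1.09 from it. Closest to Vim were Heg1, Fam129b and Arid5a, each at 0.17, and closest to Nes were Odc1 (0.15), Ankrd33b (0.16) and Amotl1 (0.17). Synm ran closest to Ucp2 (0.21), Mbd1 (0.23) and Zfp697 (0.24). For Lmna these were Sh3pxd2a (0.15), Gch1 (0.18) and Prkar1b (0.18), and for Plec Flna (0.13), Ahnak and Mocos (0.15 each). Among the 6 themselves, Vim and Plec were the closest pair, at an RMS of 0.24.

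Other genes of the filament system were read as 4 lists. In KO mice the median log2 difference between the sides was -0.02 for other intermediate filament genes, -0.21 for linkers, 0.04 for lamina partners and 0.19 for chaperones and enzymes, against -0.01 over all genes. In WT mice these medians were -0.05, -0.20, 0.03 and 0.04, against -0.06 over all genes. Of 21 other intermediate filament genes, 16 were tested and 0 passed in either genotype between the sides or between genotypes on either side; with KO and WT averaged, Nefm, a neurofilament subunit, rose by 1.95 ± 0.45 and Krt18, a keratin, fell by 0.67 ± 0.21 on the log2 scale (edgeR adjusted p = 0.00725 and 0.0318). Neuron markers, beside Nefm, summed to 40.7 to 73.7 CPM in KO ipsilateral, 26.7 to 40.3 CPM in KO contralateral, 48.6 to 81.5 CPM in WT ipsilateral and 49.1 to 78.9 CPM in WT contralateral libraries. Of 18 linker genes, 17 were tested. Between the sides 0 passed in KO mice, where 6.29% of all genes were called. In WT mice 1 linker rose and 2 fell, where 9.61% of all genes rose and 19.2% were called in either direction. The linker that rose was Dst, a member of the plectin family, with 1648 ± 92.5 CPM ipsilaterally and 964 ± 245 CPM contralaterally. The genes that fell were Dtna, dystrobrevin, with 226 ± 3.58 CPM ipsilaterally and 407 ± 28.8 CPM contralaterally, and Dag1, dystroglycan, with 211 ± 30.6 CPM ipsilaterally and 308 ± 23.7 CPM contralaterally. For Dst, Dtna and Dag1 edgeR's adjusted p was 0.0145, 0.0159 and 0.0176. Between genotypes ipsilaterally, Dag1 was higher in KO (330 ± 24.3 against 211 ± 30.6 CPM in WT) and Itgb4, an integrin of the plectin linkage, was lower (98.8 ± 11.1 against 166 ± 0.808 CPM in WT). For Dag1 and Itgb4 in this comparison edgeR's adjusted p was 0.0196 and 0.0164. Without mouse 297 edgeR called 0 of all genes in this comparison, so neither Dag1 nor Itgb4 passed.

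Of 18 lamina and nuclear envelope partners of Lmna, 0 passed between the sides in KO mice, and in WT mice 1 rose, Emd (emerin), by 0.41 ± 0.13 (edgeR adjusted p = 0.0452). Between genotypes ipsilaterally, where 6.31% of all genes were called, 1 of the 18 passed. This was Syne3, a nuclear envelope linker, at 14.9 ± 0.710 CPM in KO and 27.7 ± 2.58 CPM in WT libraries (edgeR adjusted p = 0.0348). Of 21 chaperones, kinases and degrading enzymes of filaments, Hspb6, a small heat shock protein, rose in KO mice to 27.9 ± 5.40 CPM ipsilaterally, against 12.8 ± 1.0 CPM contralaterally (edgeR adjusted p = 0.0243), and 0 of the 21 fell. In WT mice 4 of the 21 rose and 0 fell. Of all genes, 5.45% rose in KO mice and 9.61% in WT mice, and 6.29% and 19.2% were called in either direction. Those that rose in WT mice included Rock2, a kinase that phosphorylates Gfap and vimentin (0.71 ± 0.13, edgeR adjusted p = 0.00501), and Pak2, a kinase of the family that phosphorylates vimentin (0.37 ± 0.10, edgeR adjusted p = 0.0296). Pak1, a vimentin kinase, was lower in KO than WT libraries on both sides, with 107 ± 6.40 against 154 ± 15.9 CPM ipsilaterally and 87.8 ± 11.7 against 189 ± 15.9 CPM contralaterally (edgeR adjusted p = 0.0423 and 0.00721). Without mouse 297 edgeR called 0 of all genes between genotypes ipsilaterally, so neither Pak1 nor Syne3 passed there. Contralaterally it called 0 genes without mouse 298, and 0 without the KO contralateral library of mouse 298 or 300 alone. Pak1 thus did not pass in those fits. With KO and WT averaged, where 17.1% of all genes rose and 33.2% were called in either direction, 2 of 17 linkers rose and 3 fell, 2 of 18 lamina partners rose and 2 fell, and 7 of 21 chaperones and enzymes rose and 3 fell.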

How the data were processed

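RNA-seq of 12 libraries was read from the deposited per-library tables. The deposited whole-number values, taken as counts per gene because they are whole and sum to different totals, and the TPM and RPKM values come from the authors; the sources used here do not name an aligner or counter or say whether strand was used, and per the submitters' processing notes the build was mm10. The RPKM values served only to check gene lengths against GENCODE vM21. CPM are counts scaled to the library's total over the tested genes multiplied by its TMM factor (0.937 to 1.05).

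Groups follow the sample titles. Differences were tested with edgeR 4.0.16 (R 4.3.3; quasi-likelihood test, TMM, robust) on all 12 libraries with 1 term per group, over the 15571 genes kept by filterByExpr at a minimum count of 10, with Benjamini-Hochberg adjustment over all of them and a threshold of 0.05. The samples are 3 mice a group. Alternatives used DESeq2 1.42.0, limma 3.58.1 on log2(TPM + 1) and log2(TPM + 0.1), other scalings and filters, the mouse as a block, and leaving out each library or mouse. Scripts were tested on simulated data. Same-numbered hemispheres come from the same animal: their deviations from the group means correlated at -0.04 (mouse 297) to 0.70 (mouse 296) over 12551 genes. For mice 297 and 474 a hemisphere of another mouse correlated better (0.29 against -0.04, and 0.49 against 0.44), so the values do not bear out the pairing for these 2 of the 3 WT mice, and blocked calls in WT mice rest on the labels. Libraries of 1 group differed by at least 11.3 times counting noise, so none was counted as a duplicate. Counting error of the 6 genes was small, with 861 counts or more in every library; the lowest of these counts gives 71.2 CPM with an exact 95% interval of 66.5 to 76.1, which covers counting error only.

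The members and the lists were chosen with earlier results of these data known. The text names all 6 genes, at most 4 genes per list and comparison with the smallest adjusted p among those that passed, and the 3 genes most like each member. Promoters are from RefSeq, where 5 of the 6 symbols matched. How far the floxed alleles were deleted, and some genes of the lists, are not reported here, so genotype comparisons rest on the labels.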

Additional observations from a re-analysis of the deposited data

How the results depend on the processing

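The Nes call in WT mice and the Gfap and Nes calls in KO mice passed under all alternatives that kept every library. The number of the 6 genes called between the sides in WT mice was 1 and became 2 with DESeq2, 2 with the limma tests on TPM at either pseudocount, and, with the replicate block, 4 with the mouse as a fixed term (edgeR) and 2, Nes and Lmna, with the mouse as a random term (limma), where Gfap and Synm were not called. On the ipsilateral side between genotypes it was 0 and became 1 with DESeq2. When libraries or mice were left out in turn, the number called ranged from 0 to 4 between the sides in KO mice, from 1 to 2 between the sides in WT mice, from 0 to 1 between genotypes ipsilaterally and from 2 to 5 for KO and WT averaged. The lowest of these, 2, came without mouse 295.

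Differences that changed sign had not passed the test. The difference between the side differences of Vim became -0.16 with log2(TPM + 1) and -0.16 with log2(TPM + 0.1). Over the left-out libraries and mice, Synm ranged from -0.019 to 1.09 between the sides in WT mice and from -0.073 to 0.48 with KO and WT averaged. Between genotypes ipsilaterally, Vim ranged from -0.53 to 0.041 and Nes from -0.55 to 0.13, and contralaterally Plec ranged from -0.15 to 0.19. For the difference between the side differences, Vim ranged from -0.24 to 0.40 and Lmna from -0.46 to 0.26. The cause was not tested.

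Over all genes, the count called between the sides in KO mice was 979, against 2498 with the mouse as a fixed block, 2996 as a random block, 2057 with DESeq2, 1790 with only the 2 groups, 575 and 538 with TPM, and 2 to 2282 over the left-out libraries and mice. In WT mice it was 2982, against 4641 and 5020 with the blocks, 1579 with only the 2 groups and 659 to 3610 over left-outs. Between genotypes ipsilaterally it was 983, against 1753 with DESeq2, 196 with only the 2 groups and 0 to 1351 over left-outs; contralaterally 233, against 660 with DESeq2, 150 and 144 with TPM and 0 to 391 over left-outs. The averaged comparison had 5169 and 2812 to 5793 over left-outs. In KO mice 86.6% of the called genes were higher ipsilaterally, but 66.6% with log2(TPM + 1).

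With 3 mice a group, the 95% interval of Synm between genotypes ipsilaterally runs from -2.29 to -0.47, and a p that misses the threshold does not show that the groups are alike.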
